A study of Mus musculus with 6 samples.

Results

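Interferon-stimulated genes are the genes that cells switch on when interferon, a cytokine released on viral infection, binds its receptor. Kinases bound to the receptor activate transcription factors that bind a short promoter element, the interferon-stimulated response element (ISRE). The products block viral entry, translation and replication, sense foreign RNA, or limit the response itself. In blood stem cells, interferon is known to end dormancy, and part of this gene set is known to be expressed there without infection. A set of 36 such genes was chosen by name, from Ifit1 to Adar, out of 21633 genes tested (all protein-coding genes of chromosomes 1 to 19 and X, with Mx1 and Mx2, which are annotated as transcribed pseudogenes in the reference strain). All 36 names matched the annotation.

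ATAC-seq, which uses a transposase to mark accessible DNA, was applied to long-term haematopoietic stem cells sorted from bone marrow of C57BL/6 mice as lineage-negative, Kit-positive and Sca1-positive cells without Flk2 or Cd34. The labels give 3 aged and 3 young samples, with no genetic change or drug in either group, and each has its own list of peaks on mm10. All samples shared an overnight culture at 3% oxygen in buffered saline with 10% serum, and no uncultured sample was analysed here. Ages in weeks, sex and the number of animals are not stated in the labels. If the samples share animals, the p-values reflect only technical spread. Values in threes are given in the order of replicates 1 to 3, and n is 3 lists per age throughout.

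The lists held 110596 to 263956 distinct peaks, and the depth of sequencing is unknown. A gene was called in a list when a peak overlapped, by at least 1 bp, the 1 kb on either side of its annotated start or end. Aged replicate 3 and young replicate 2 called the fewest genes, 53.1% and 55% of all 21633, against 64.3% to 69.7% in the other lists. The sample titles hold 2 unexplained numbers. An "exp" number is the same at both ages for replicates 1, for replicates 2 and for replicates 3. The number before it was 10000 for aged replicate 1, 2500 for both replicates 2, 5000 for both replicates 3 and below 2500 for young replicate 1. Its part in the calls was not tested. Strong peaks, those whose -log10 q reached 5, numbered 224 in young replicate 2 and 6005 to 31725 in the other lists. Of 10 stem-cell marker genes, 6 (Kit, Procr, Hlf, Meis1, Fgd5 and Ctnnal1) were called in all 6 lists, and Ly6a, Mecom, Hoxb5 and Slamf1 were not. Per list, 8, 9 and 7 (aged) and 9, 9 and 9 (young) of these 10 genes were called. Markers of other cells were not free of calls: none of 5 B cell, 5 T and NK cell or 5 erythroid genes was called in all 6 lists, 1 of 7 myeloid genes was (Mpo), 2 of 4 plasmacytoid dendritic cell genes were (Tcf4 and Bst2, itself in the set), and 3 of 3 megakaryocyte genes were. Per list, 2 to 4 (aged) and 3 to 5 (young) of the B cell, 2 to 4 and 2 to 4 of the T and NK cell, 2 to 4 and 4 of the myeloid and 1 to 5 and 2 to 3 of the erythroid genes were called. Cd34 and Flt3, whose products the sort excluded, were both called in 4 lists. An accessible gene end does not show that the gene is transcribed, and the part of other cells in the results was not tested.

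Most interferon-stimulated genes had accessible ends at both ages. Gene ends of 32, 32 and 20 of the 36 genes had a call in the aged lists, and 32, 19 and 30 in the young. The same lists called 69.1%, 64.6% and 53.1% (aged) and 69.7%, 55% and 64.3% (young) of all genes. In the 4 lists that called the most genes, the set therefore stood 19 to 24.3 percentage points above all genes. In aged replicate 3 it stood 2.42 points above, and in young replicate 2 it stood at -2.22 points, so the excess was small or missing in the lists that called the fewest genes.

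Calls in every list were correspondingly few. There were 10 of the 36 genes called in all 6 lists, where the background was 35.1% of all genes, and 13 more were called in 5 lists (background 15.1%), so 23 had at least 5 (background 50.2%). Called in 4 lists were 7 genes, in 3 lists 1, in 2 lists 4 and in 1 list 1, and no gene lacked a call in all lists (background 12.1%). The 10 genes called throughout were Ifit1, Ifit2, Mx2, Rsad2, Usp18, Ddx58, Bst2, Ifitm1, Gbp2 and Trim25. In Mx2, Ddx58, Ifitm1 and Gbp2 no single region was called in all 6 lists, and different peaks gave the calls. Without young replicate 2 the count of genes called throughout was 17. Without both that list and aged replicate 3, a choice made after seeing the data, it was 26 of 36, where the background was 53%.

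The count in all 6 lists followed the window and the peak limit. It was 8 genes within 500 bp (background 29.8%), 20 within 2.5 kb (background 46.9%), 6 with q at most 0.05 (background 24.6%) and 7 with the strongest 100000 peaks of each list (background 25.1%). With the summit required inside the window it was 10 (background 33.9%). Of the 26 genes with a listed start, 22 had a peak within 1 kb of it in at least 4 lists (background 58.2%) and 8 in all 6 (background 35.3%).

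**Figure D1:**
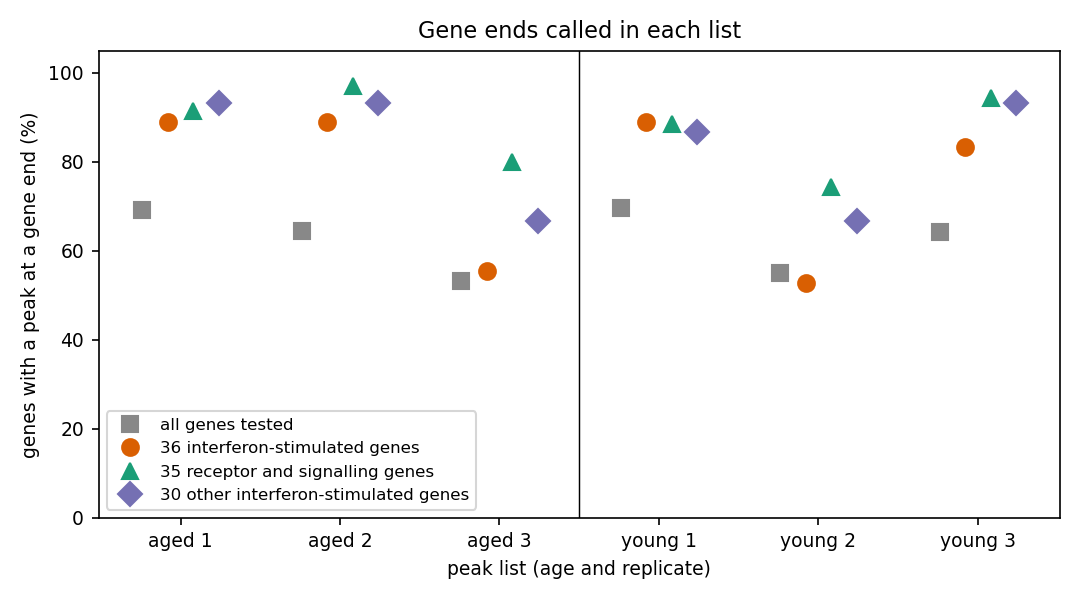
Percentage of genes with a peak within 1 kb of either gene end (vertical axis) in each of the 6 peak lists (horizontal axis), for all genes, the 36 interferon-stimulated genes, 35 receptor and signalling genes and 30 other interferon-stimulated genes; each point is 1 list. The circles for the 36 genes lie between 83.3% and 88.9% in 4 lists and fall to 55.6% in aged replicate 3 and 52.8% in young replicate 2, next to the squares for all genes.

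The first comparison asked whether the set was open more often at one age. Called members averaged 77.8% ± 19.2 (SD) for aged lists and 75% ± 19.4 for young ones, which is 2.78 percentage points apart (exact 2-sided permutation test, p 0.7). With 3 lists per age the smallest p this test can give is 0.1, so no such comparison could pass 0.05. Relative to all genes in the same list, the aged excess was 15.5 ± 11.6 (SD) points and the young one 12.0 ± 12.3 (exact permutation p 0.5). Single lists set both directions: without young replicate 2 the differences were -8.33 and -3.59 points, and without aged replicate 2 they were -2.78 and -0.887 points. Without aged replicate 1 the first was -2.78 and the second 1.37.

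Strength was read as a percentile, the rank of the peak's -log10 p among all peaks of its own list, with 100 the strongest and 0 where no peak was called. The mean over the 36 genes was 74.0, 74.1 and 39.1 (aged) and 72.4, 35.2 and 65.1 (young). The 2 low values again belong to aged replicate 3 and young replicate 2, and the ages overlap. The aged mean was 62.4 ± 20.2 (SD) and the young mean 57.6 ± 19.7 (exact permutation p 0.5). The difference of 4.83 turned to -6.37 without young replicate 2, to -0.974 without aged replicate 1 and to -1.02 without aged replicate 2. Averaged over the 6 lists, the median gene of the set stood at 66.1 and the median of all genes at 55.2, with 25 of the 36 above the latter.

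**Figure D2:**
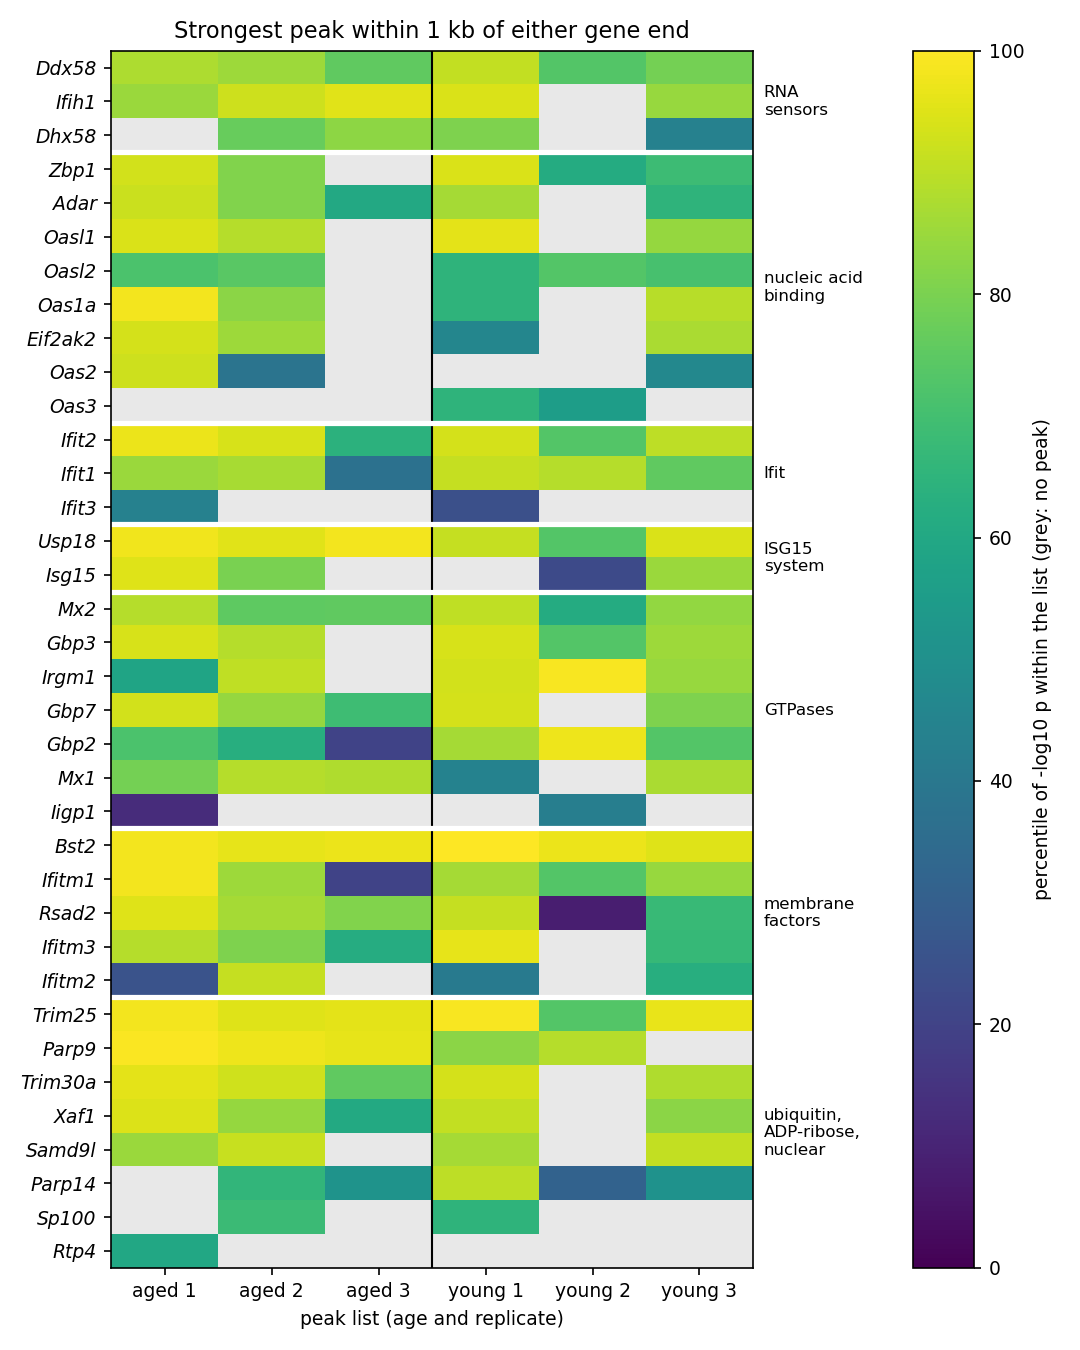
Percentile of the strongest peak within 1 kb of either gene end (colour, 0 to 100, rank of -log10 p within the list) for the 36 interferon-stimulated genes in rows, grouped by role, and the 6 peak lists in columns; grey marks a gene without a peak. Bst2, Trim25 and Usp18 are bright in all columns, grey cells gather in aged 3 and young 2, and Ifit3, Oas3, Iigp1, Sp100 and Rtp4 are grey in at least 4 columns.

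Promoter sequences were searched for the element through which interferon acts. Windows from 250 bases before to 50 after annotated starts came from RefSeq (GRCm38.p6), and 26 of the 36 genes had one. Zbp1, Oas2, Usp18, Dhx58, Rtp4, Parp14, Parp9, Mx1, Mx2 and Iigp1 had none. The ISRE core was searched on both strands as GAAA, any 2 bases and GAAA again (TTTC, any 2 bases and TTTC on the other strand), with overlapping matches allowed. It was found in 17 of the 26 genes, and in 18 of their 32 windows (56.2%) against 3.46% of all 32619 windows. A GAS element, known for the response to interferon gamma (TTCNNNGAA, which is its own reverse complement), was in 7 of the 32 windows (21.9%) against 8.34% of all. A match is a description of letters and not a shown binding site.

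The following stretches show how the core is placed in 4 promoters where a peak covered it in at least 4 lists (Bst2 to Oas1a) and in 4 where it was covered in fewer (Isg15 to Oas3), each with its build GRCm38.p6 coordinates and gene strand; capitals mark ISRE cores, and overlapping cores run together.
Bst2 (chr8:71537557-71537632, minus): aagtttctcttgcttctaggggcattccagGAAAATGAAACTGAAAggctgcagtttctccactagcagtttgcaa
Ifit1 (chr19:34640755-34640843, plus): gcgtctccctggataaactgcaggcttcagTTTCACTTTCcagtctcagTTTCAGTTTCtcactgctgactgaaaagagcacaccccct
Rsad2 (chr12:26456533-26456602, minus): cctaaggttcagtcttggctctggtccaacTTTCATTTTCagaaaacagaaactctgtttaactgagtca
Oas1a (chr5:120907500-120907575, minus): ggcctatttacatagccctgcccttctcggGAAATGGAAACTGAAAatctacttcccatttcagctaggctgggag
Isg15 (chr4:156200845-156200926, minus): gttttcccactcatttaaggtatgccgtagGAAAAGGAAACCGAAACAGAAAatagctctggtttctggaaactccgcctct
Gbp3 (chr3:142559969-142560044, plus): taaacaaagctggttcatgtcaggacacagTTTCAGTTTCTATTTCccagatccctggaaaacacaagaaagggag
Ifit3 (chr19:34583343-34583446, plus): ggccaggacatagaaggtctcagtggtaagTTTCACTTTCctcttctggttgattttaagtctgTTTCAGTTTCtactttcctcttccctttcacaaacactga
Oas3 (chr5:120777695-120777764, minus): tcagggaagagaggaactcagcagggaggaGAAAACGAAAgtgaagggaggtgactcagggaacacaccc

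Of the 17 genes with a core, 12 had one wholly inside a peak in at least 4 lists. The same share over all genes with a core was not computed, so these counts cannot show whether the set is unusual. Bst2 alone had this in all 6. Ifih1, Gbp7, Trim30a, Ifitm2, Rsad2 and Ifit1 had it in 5 lists, and Gbp2, Ddx58, Oas1a, Irgm1 and Eif2ak2 in 4. Isg15 and Ifitm3 reached 3 lists, Ifit3 and Oas3 1 each, and Gbp3 0. In Gbp3 the peaks lay just downstream of the core, over chr3:142560080-142560960, where a second annotated start lies. Per list, 14, 14 and 4 of the 17 genes had a covered core in the aged lists, and 11, 7 and 14 in the young, so the ages overlap here too.

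Next, all 32619 promoter windows were read, which belong to 26794 genes, a wider set than the 21633 tested at gene ends. Of these, 12.0% of the 1129 windows with a core overlapped a peak in all 6 lists, against 18% of the 31490 windows without one, and in each single list the called share was lower with a core (33.6% against 40.5% in aged replicate 1). For the 36-gene set the order varied. Its windows with a core were called in 83.3%, 83.3% and 27.8% (aged) and 72.2%, 38.9% and 88.9% (young), and those without in 50%, 85.7%, 42.9%, 57.1%, 35.7% and 71.4%. Where a window of the set was called, the summit lay at a median of -45 bases from the start, and 109 of 119 summits lay within 150 bases of it; the window itself limits how far a summit can lie.

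**Figure D3:**
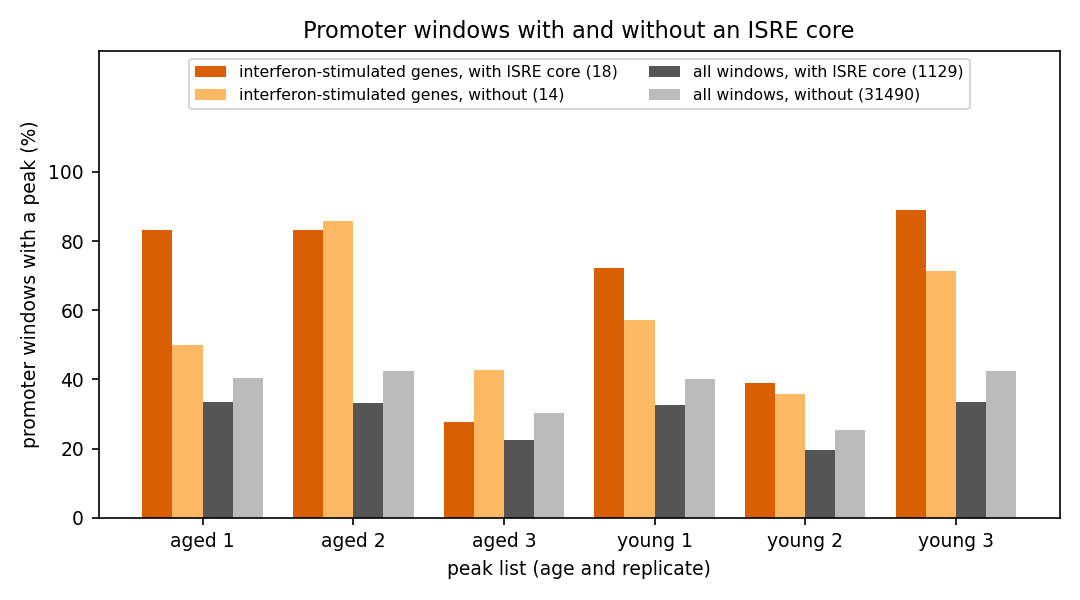
Percentage of 300-base promoter windows that overlap a peak (vertical axis, bars from 0) in each list (horizontal axis), split by the presence of an ISRE core, for the interferon-stimulated genes and for all promoter windows, with the number of windows in the legend. The dark grey bars stand below the light grey ones in all 6 lists, and the dark orange bars exceed 70% in 4 lists.

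All 3 cytosolic RNA sensors were called in at least 4 lists (background 58.9%, against 30 of the 36 genes). Ddx58, which encodes RIG-I, the sensor of RNA with a 5′ triphosphate, had percentiles of 87.8, 85.2 and 75.8 (aged) and 90.7, 73.1 and 79.2 (young). No single region gave all these values, and that of aged replicate 3 came from a separate peak, chr4:40240629-40240778. Ifih1 encodes MDA5, the sensor of long double-stranded RNA, and had 84.9, 92.4 and 95.3 in aged lists and 94.4 and 84.5 in young replicates 1 and 3, with no call in young replicate 2. The strongest region of both loci lay at the gene start, and a core began at base 33 of Ifih1 and base 3 of Ddx58. Dhx58 encodes LGP2, a regulator of the other sensors, and was called in aged replicates 2 and 3 (76.9 and 83.0) as well as young replicates 1 and 3 (80.6 and 43.8). Its region at chr11:100703822-100704487 also lies within 1 kb of an end of Kat2a, so the peak cannot be given to one gene. A region inside Dhx58 (chr11:100702532-100703078) had 79.2 and 73.5 in aged replicates 1 and 2, with 81.3 and 66.6 in young replicates 1 and 3.

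Of 8 genes of nucleic acid binding effectors, none was called in all 6 lists (background 35.1%) and 3 were called in 5 (background 15.1%). Oas1a, an oligoadenylate synthetase that activates RNase L, was called at 98.4 and 82.5 in aged replicates 1 and 2, at 65.0 and 89.1 in young replicates 1 and 3, and nowhere else. Oasl1, a related protein that inhibits translation of Irf7 in mice, had the same 4 lists called, at 94.3, 88.9, 96.1 and 84.1. Oasl2 was called in all but aged replicate 3, between 65.0 and 74.5. Eif2ak2, the kinase PKR that halts translation on double-stranded RNA, was called in the same 4 lists as Oas1a, at 93.6, 85.4, 45.8 and 87.2. Zbp1, a sensor of Z-form nucleic acid that can trigger necroptosis, was missing only in aged replicate 3 and otherwise ranged from 61.5 to 94.5.

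Oas2 and Oas3 were called at their ends in at most 3 lists. Oas2 had 92.4 and 38.4 in aged replicates 1 and 2 and 46.6 in young replicate 3. Oas3 had no aged call, and 65.0 and 55.6 in young replicates 1 and 2; it was the 1 gene of 36 with at least 2 more young than aged calls (background 3.8%). The end windows missed a strong region inside Oas3, however. That region (chr5:120775382-120776044), centred 1946 bp downstream of the start, had percentiles of 98.7, 96.9 and 98.1 in aged and 99.0 and 93.4 in young replicates 1 and 3, so the gene was accessible at both ages. Whether it lies in an exon or intron was not resolved with the annotation used.

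Adar, the enzyme that edits adenosine to inosine in double-stranded RNA, is known to have a constitutive and an interferon-inducible promoter. At the gene ends it ranged from 60.5 to 92.1 in 5 lists and was missing in young replicate 2. An internal annotated start at chr3:89730718 lay in a region (chr3:89730372-89731274) called in all 6 lists, at 99.4, 94.9 and 91.8 (aged) and 90.7, 73.1 and 93.8 (young). The outer starts were covered in 4 lists, and neither they nor the internal start held an ISRE core in these windows.

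The Ifit genes, whose products bind viral RNA that lacks host cap methylation and block its translation, differed within one cluster. Ifit2 had percentiles of 97.2, 94.0 and 64.3 (aged) and 93.5, 73.1 and 90.1 (young) at its start. Ifit1 had 84.9, 86.9 and 37.3, and 91.4, 88.8 and 75.6, in a region that also touches an end of Ifit1bl2. Ifit3, between them, had at its ends only weak peaks, in aged replicate 1 (44.1) and young replicate 1 (24.3). A peak inside the gene (chr19:34586063-34586302) reached 84.9 in aged replicate 1 and was called in no other list. The promoter of Ifit3 holds 2 cores. Ifit2, in contrast, had no core in its windows.

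Isg15 encodes a ubiquitin-like protein that is attached to other proteins, and Usp18 removes it and dampens receptor signalling. Usp18 was among the strongest of the set, at 98.0, 95.3 and 98.3 (aged) and 91.1, 73.1 and 94.3 (young), so each aged value was above each young one. Isg15 had 95 and 80.0 in aged replicates 1 and 2, with 22.3 and 85.0 in young replicates 2 and 3, and no call in aged replicate 3 or young replicate 1. Its start region, chr4:156200755-156200974, was covered in 3 lists and held a run of 3 overlapping cores. On either side of the gene, regions near ends of Agrn and Perm1 were called in 5 lists each. Aged replicate 3 and young replicate 1 therefore had peaks beside the gene without one at its start region, and young replicate 2 had none of these 3 regions.

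Among the GTPases, 6 of 7 were called in at least 5 lists (background 50.2%). Gbp2, Gbp3 and Gbp7 encode guanylate-binding proteins that coat vacuoles holding pathogens. Gbp3 and Gbp7 each missed 1 of the lists with few calls (aged replicate 3 and young replicate 2) and reached 73.1 to 93.8 and 69.1 to 93.5 elsewhere. Gbp2 had 71.6, 62.5 and 20.01 (aged) and 86.5, 97.6 and 73.1 (young), so each young value was above each aged one. Its highest young value, in young replicate 2, comes from a peak near the end of Gbp2b, and the region at the Gbp2 start itself (chr3:142620219-142620885) was not called in that list. In aged replicate 1 the value came from a second peak inside the gene, and the start region stood at 12.9. At that region the calls were 12.9, 62.5 and 20.01 in the aged lists, with 86.5 and 73.1 in young replicates 1 and 3, so with no call in young replicate 2 the ages overlap.

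Irgm1, a GTPase needed for stem-cell survival under interferon gamma, had 58.4 and 90.4 in aged replicates 1 and 2, no call in aged replicate 3, and 93.2, 99.1 and 84.6 in young lists. Mx1 and Mx2 encode dynamin-like antiviral proteins and carry disabling mutations in this strain, but their ends were open. Mx1 had 79.0, 88.8 and 88.2 in aged lists and 44.3 and 87.1 in young replicates 1 and 3. Mx2 had a call at an end in each list, between 61.5 and 90.4, but from different peaks. In young replicate 2 its strongest peak lay at the opposite end from that of the other lists. Iigp1 was the exception, with 12.9 in aged replicate 1, 42.7 in young replicate 2 and no call elsewhere.

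Factors that act at membranes included the most accessible gene of the set. Bst2 encodes tetherin, which holds budding virions at the cell surface. It had percentiles of 98.3, 96.3 and 97.1 (aged) and 99.8, 97.3 and 95.3 (young), and its mean of 97.3 exceeded that of 90.8% of all genes. The authors' fold enrichments at this peak were 9.73, 16.3 and 7.08 (aged) and 15.8, 4.13 and 16.2 (young), each relative to its own sample's background. Bst2 was thus near the top of each list, also of those with few calls. Rsad2, which encodes viperin, a maker of a chain-terminating nucleotide, had 95.1, 86.6 and 81.1 (aged) and 91.1, 8.54 and 67.5 (young).

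Ifitm1, Ifitm2 and Ifitm3 encode small membrane proteins that hinder fusion of enveloped viruses, and they are known to be expressed in stem cells. Ifitm1 had 98.4, 85.4 and 20.01 (aged) and 86.5, 73.1 and 84.7 (young). In aged replicate 3 and young replicate 2 these values came from peaks at the far gene end. Ifitm3 had 88.8, 80.8 and 62.0 in aged and 96.1 and 67.2 in young replicates 1 and 3. The 96.1 came from a peak at its far gene end. Within 1 kb of its listed start it had 88.8, 73.2 and 62.0 in aged lists and 67.0 in young replicate 3, with no call in young replicates 1 and 2. Ifitm2 was called at its annotated ends at 25.5 and 91.4 in aged replicates 1 and 2, with 40.9 and 62.7 in young replicates 1 and 3. Its listed start lies inside the annotated gene, and there the peak (chr7:140955833-140956337) reached 95.9 and 91.4 in aged replicates 1 and 2, with 90.3, 53.8 and 93.9 in young lists. Each of the 3 was called within 1 kb of its listed start in at least 4 lists (background 58.2%, against 22 of the 26 genes with a listed start).

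Ubiquitin ligases and ADP-ribose enzymes were led by Trim25, the ligase that ubiquitinates RIG-I. It had 98.3, 95.3 and 96.1 (aged) and 99.2, 73.1 and 96.5 (young), with no core in its promoter window. Trim30a, a related protein, was called in all but young replicate 2, from 75.8 to 95.9, and Xaf1, a proapoptotic protein, in the same 5 lists from 60.9 to 94.8. Samd9l, a negative regulator of cell growth, was called in 4 lists, from 84.9 to 91.5, and was missing in aged replicate 3 and young replicate 2. Parp14, a mono-ADP-ribosyltransferase, had no call at its ends in aged replicate 1 and ranged from 31.5 to 90.2 elsewhere. A region inside Parp14 (chr16:35869046-35869586) had 95.1 and 82.8 in aged replicates 1 and 2, with 40.9 and 83.8 in young replicates 1 and 3.

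Parp9, which works with the ligase encoded by Dtx3l, had gene-end percentiles of 99.6, 97.6 and 96.2 in aged and 82.6 and 88.8 in young replicates 1 and 2, with no call in young replicate 3. Each aged value was above each young one. A region at the edge of the window, chr16:35939431-35940104, was nevertheless called in all 6 lists, at 99.6, 97.6 and 95.6 (aged) and 97.8, 98.1 and 95.5 (young). The ages overlap there. The lower values of young replicates 1 and 2 came from other peaks, near the same end and at the opposite end, so the difference depends on the window.

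Sp100, a component of PML nuclear bodies, and Rtp4, a receptor transporter that is induced by interferon, were rarely called at their annotated ends. Sp100 was called in aged replicate 2 (68.3) and young replicate 1 (65.0), and Rtp4 in aged replicate 1 (60.0). Inside Sp100, however, a region at chr1:85703276-85704101 had 98.4, 93.9 and 91.5 (aged) and 94.9, 97.6 and 91.9 (young). Rtp4 is annotated over 94004 bp, and its strongest region, chr16:23609629-23610253, was called in aged replicates 2 and 3 as well as young replicates 1 and 3, from 70.6 to 89.9. Both genes thus had inner peaks in lists without a call at their ends.

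Gene families that lie side by side were compared next, over windows from the first to the last family gene with 10 kb on each side. Peaks in the Ifit locus (chr19:34540550-34672981) numbered 20, 12 and 11 (aged) and 16, 22 and 10 (young). Set against the mean peak density of each list, this was 1.72 ± 0.115 (SD) times the mean for aged lists and 1.57 ± 0.321 for young ones. Of its 59 merged regions, 2 were called in all 6 lists, at Ifit2 and Ifit1, and the interval around Ifit3 and Ifit3b held none.

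The Oas locus (chr5:120720333-120931648) had densities of 1.25 ± 0.249 (SD) times the mean for aged lists and 1.46 ± 0.421 for young ones. Among its 10 genes, Oas1c and Oas1b share the 1 region called in all 6 lists (chr5:120812028-120813116), at 98.4, 91.1 and 84.4 (aged) and 98.4, 73.1 and 90.5 (young). Oas1e was called in no list and Oas1d in 2, from 12.9 to 30.4. Sites called in at least 4 lists thus included the Oas1b and Oas1c boundary, the region inside Oas3 and the Oas1a start. The separate Oasl pair held 6, 3 and 0 peaks (aged) and 7, 5 and 4 (young).

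The Gbp locus on chromosome 3 (chr3:142486934-142673508) had 1.27 ± 0.251 (SD) times the mean density for aged lists and 1.05 ± 0.319 for young ones. The regions that span the starts of Gbp7, Gbp3 and Gbp2 were each called in 5 lists, and the 1 region called in all 6 lay outside the genes, beyond Gbp5. The Ifitm locus (chr7:140938958-141026892) was the densest of these 4, at 2.28 ± 0.934 (SD) times the mean for aged lists and 2.31 ± 1.51 for young ones. Its 2 regions called in all 6 lists lay outside the family, beyond Ifitm5; 1 of them, chr7:140946936-140947643, is within 1 kb of an end of Pgghg. For Mx the values were 1.54 ± 0.117 (SD) for aged lists and 1.66 ± 0.904 for young ones. In the Ifit, Oas, Gbp, Ifitm and Mx loci the larger of the SDs exceeded the difference between ages.

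**Figure D4:**
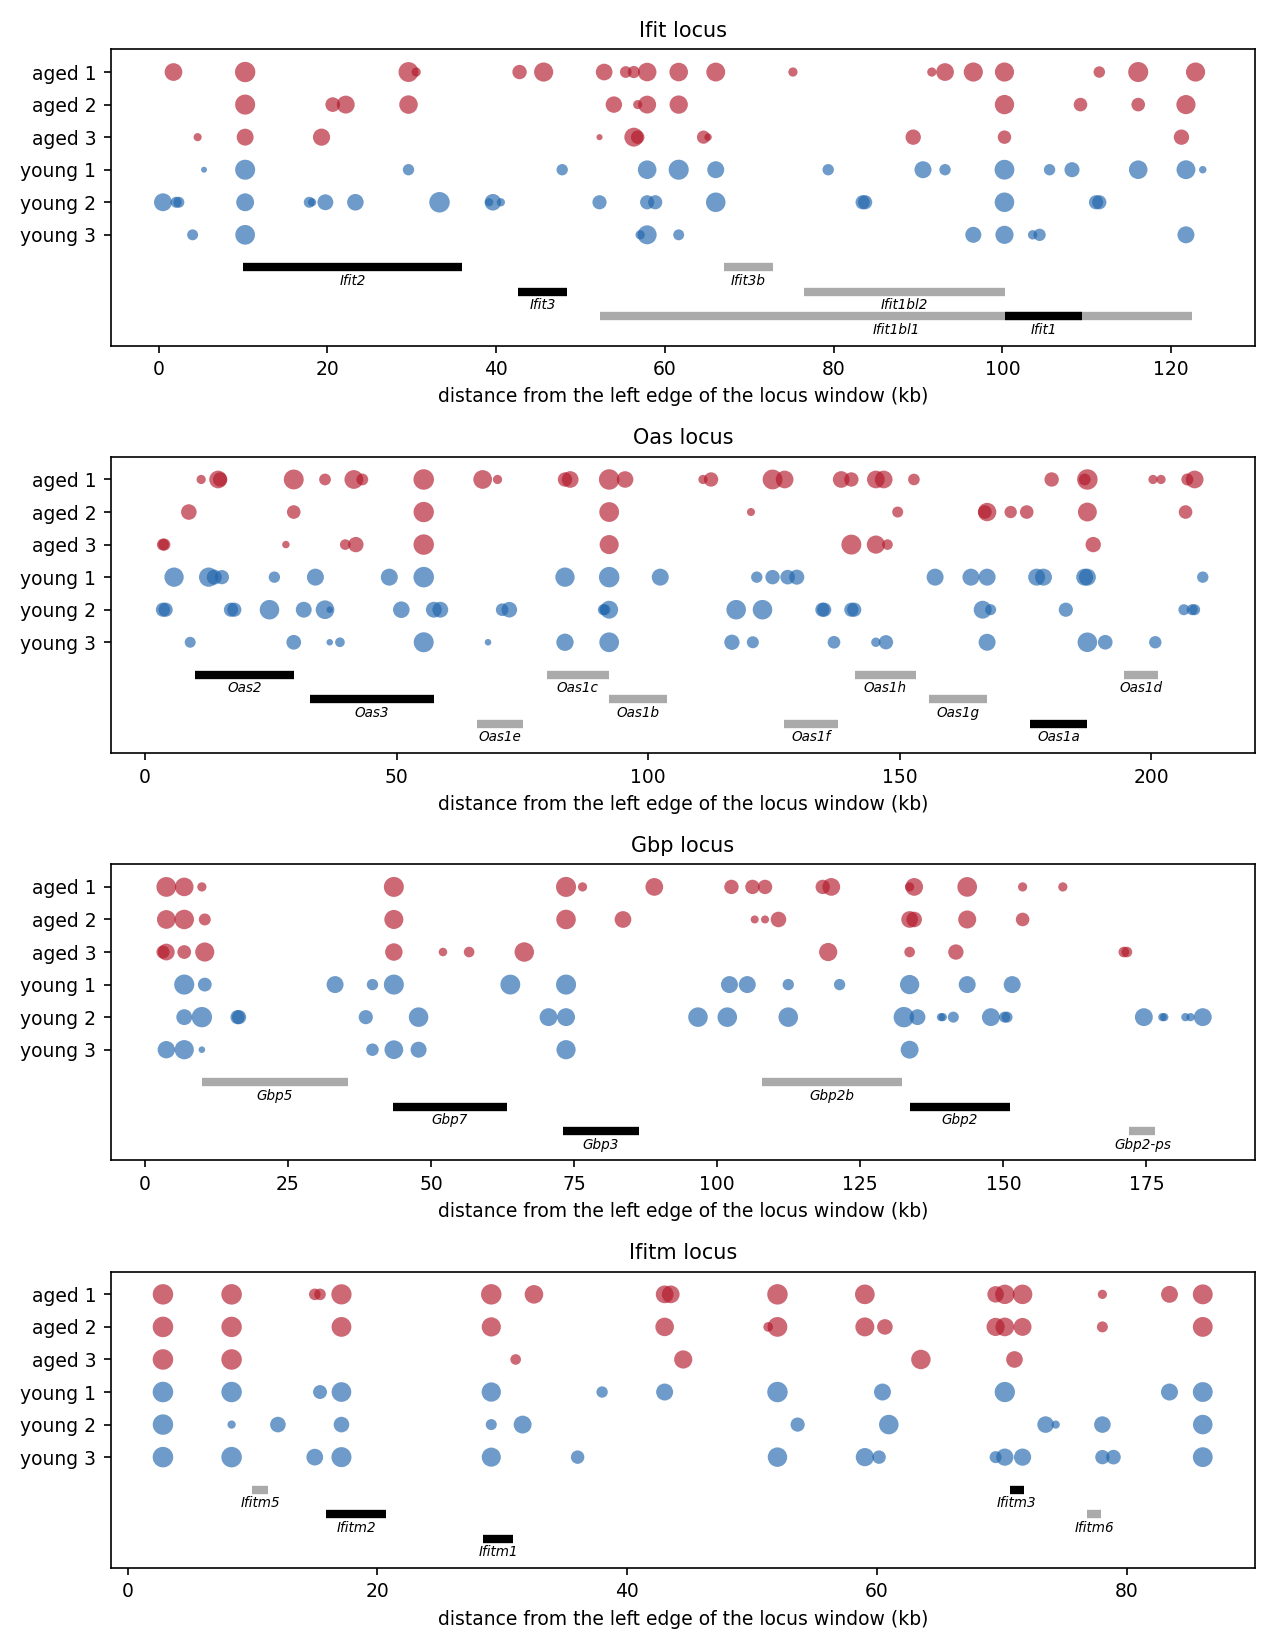
Peaks of the 6 lists along the Ifit, Oas, Gbp and Ifitm loci; the horizontal axis is the distance in kb from the left edge of the window, each row is a list (red aged, blue young), and a larger dot is a peak of higher percentile. Bars below are annotated genes, black for the 36 named genes and grey for their neighbours; columns of dots at the Ifit2, Ifit1, Gbp3 and Ifitm1 starts recur at both ages, and most other dots appear in 1 list.

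Over the gene bodies with 10 kb on each side, the 36 loci contained 566 merged regions. Of these, 13 (2.30%) were called in all 6 lists, where the background was 1.09% of 882758 regions. In 1 list alone were 427 (75.4%), where the background was 85.2%. Both backgrounds take all regions, also those far from any gene, so they are not matched to places near genes. At listed starts 6 of 43 regions were called in all 6 lists, at other gene ends 2 of 57, inside genes 1 of 244 and in the flanks 4 of 222. For genes without a listed start, all end regions count as other gene ends, also where one may be the start. The 2 regions at other gene ends belong to such genes, Usp18 and Parp9, so starts and other ends cannot be compared here. Shares for these places over all genes were not computed. The region of highest mean percentile in each locus, taken over the 6 lists, lay at a listed start for 15 of the 36 genes, at another gene end for 6, inside the gene for 6 and in the flank for 9. Of those at another gene end, Mx1, Mx2, Oas2, Usp18 and Zbp1 have no listed start. Several in the flank belong to neighbours, as for Bst2, whose strongest locus region (chr8:71542562-71543168) lies at an end of Mvb12a. Of all peaks, the loci held 0.0836% ± 0.0116 (SD) for aged lists and 0.0835% ± 0.0267 for young ones (exact permutation p 1).

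Age-specific calls were absent from the set. Of the 36 genes, 0 had calls in every aged list and none of the young (background 0.208%), and 0 the reverse (background 0.287%), and none of the 566 regions was either (background 0.0502% and 0.0608%). With backgrounds this small, 0 of 36 is near the background and no result about these genes. More aged than young lists were called for 10 genes (background 19.7%), more young lists for 6 (background 20.5%), and equal numbers for 20 (background 59.8%). Percentiles did not overlap between ages for 3 genes: Usp18 and Parp9 with aged above young (background 1.88%) and Gbp2 with young above aged (background 1.65%). These rest on ranks within lists of unequal length, and in young replicate 2 as many as 7 of the 36 genes shared the tied percentile of 73.1.

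Most genes that receive and relay the interferon signal were called at both ages. Of 35 receptor, kinase, STAT, IRF, inhibitor and sensor-pathway genes, 32, 34 and 28 were called (aged) and 31, 26 and 33 (young), and 22 were called in all 6 lists (background 35.1%) and 28 in at least 5 (background 50.2%). Their aged excess over all genes was 27.2 ± 5.13 (SD) points and the young one 22.7 ± 6.27 (exact permutation p 0.4). In aged replicate 3 the excess was 26.9 points and in young replicate 2 it was 19.3, where the 36 target genes had 2.42 and -2.22. The difference between the lists of genes was not tested.

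By role, the receptor genes Ifnar1 and Ifngr1 had percentiles from 98.8 to 99.9 and from 98.9 to 99.8. Their partner chains varied more between lists: Ifnar2 had 22.3 in young replicate 2 and 94.1 to 96.5 elsewhere, and Ifngr2 ranged from 51.4 to 98.6. Il10rb, a shared chain of the interferon lambda receptor, had no call in aged replicate 3, and Ifnlr1, its other chain, was called in 4 lists. The kinase genes Jak1, Jak2 and Tyk2 were called in all 6 lists. Irf9, a DNA-binding factor of the pathway, ranged from 94.1 to 98.3. Irf7, which amplifies interferon production, had 91.1, 69.6 and 91.4 in aged lists and 83.1 in young replicate 3 alone. Irf7 and Tlr3, with the same pattern of calls, were the 2 of 35 with at least 2 more aged than young calls (background 2.47%). Tlr7 was called in no list and Ikbke in 2.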

How the data were processed

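Peaks were called per sample, with 1 list for each of 3 aged and 3 young samples; Bowtie2, SAMtools, Picard and MACS2 and the build mm10 are named in the submitters' processing notes, while versions, parameters, read shift and depth are unstated in these sources. The lists have no header. Judged by its values, the deposited score restates -log10 p times 10 as a whole number of at most 1000. The fold enrichment in the deposited lists is a ratio to background of the same sample. Each deposited peak has a -log10 p-value and a -log10 q-value, and its p is at most 0.01. Peaks with the same interval were merged to distinct peaks, and values were used within a list only.

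Gene positions came from RefSeq (GRCm38.p6, the assembly mm10 names), and groups from the sample titles. Percentiles average ties. Ages were compared on single values per list with an exact 2-sided permutation test, and counts were set beside those of all genes. Regions are peaks of all lists merged where they overlapped by at least 1 bp. Calling was tested on simulated lists (Python 3.11.15, numpy 2.4.6, pandas 2.3.3). Members and lists of genes were chosen with earlier results of these data known. Named genes are all 36 members, their family neighbours, and genes of the pathway list called in all 6 or in at most 3 lists. Il10rb and Ifnlr1 were named outside this rule, as were Irf7 and Tlr3, which were named after their values were seen. Results of 1 gene on the added lists are not reported here. Replicate and "exp" numbers are shared between ages. The labels do not say what they mark, and whether they mark a batch could not be settled with these lists. Alternatives were a q limit of 0.05, equal list length, other windows, summits, starts alone, left-out lists and a replicate block.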

Additional observations from a re-analysis of the deposited data

How the results depend on the processing

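With 3 lists per age no comparison could pass 0.05 under any alternative, so p-values say nothing on stability. Counts and directions moved. With the window at 2.5 kb, 20 of the 36 genes were called in all 6 lists (background 46.9%), and the difference in called members turned to -0.926 points. With peaks of q at most 0.05 the count was 6 (background 24.6%), without aged replicate 3 and young replicate 2 it was 26, and leaving out 1 list gave 10 to 17. Leaving out 1 list gave differences, aged minus young, of -8.33 to 13.9 points for called members, -3.59 to 10.1 points relative to all genes, -6.37 to 16.5 for the mean percentile, and -0.00972 to 0.0153 percentage points for the share of peaks in the loci. That share differed by -0.00676 points with q at most 0.05, -0.000333 with the strongest 100000 peaks of each list and -0.00754 without aged replicate 3 and young replicate 2. The count of genes called in all young and no aged lists was 0 to 1 with 1 list left out, the 1 being Oas3 without young replicate 3. The cause of these changes was not tested, except that fewer lists ask for fewer calls and a wider window holds more peaks. With the replicate block (exact sign-flip test, smallest possible p 0.25) the difference in called members was again 2.78 points with p 1. In the same test p was 0.75 relative to all genes, 0.75 for the mean percentile, 1 for the share of peaks and 0.5 for the signalling genes. The block changed no other call. Deviations of lists with the same number correlated at 0.0377, -0.214 and -0.226, and those of aged and young lists with different numbers at -0.0823 to 0.245. These few values cannot show whether the number marks a batch. The main test did not treat the numbers as pairs. The unknown depth limits all absences: a gene without a peak in a list was not detected there, which does not show closed chromatin.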

Other observations

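A further 30 interferon-stimulated genes outside the set (Irf7 among them, also in the signalling list) had 28, 28 and 20 genes called in aged replicates 1 to 3 and 26, 20 and 28 in the young ones. Of the 30, 15 were called in all 6 lists (background 35.1%) and 23 in at least 5 (background 50.2%). Tap1, a peptide transporter, and Psmb9, an immunoproteasome subunit next to it, had values from 80.3 to 97.6 that were equal in all lists but young replicate 1. Psmb8, a further subunit beside them, had no call in young replicate 2 and 82.8 to 97.6 elsewhere, and B2m, the light chain of class I molecules, had 31.9 in young replicate 2 and 95.7 to 99.6 elsewhere. Trim21, a cytosolic antibody receptor, ranged from 88.8 to 99.4, and Cmpk2, a nucleotide kinase beside Rsad2, from 75.8 to 99.1. Ifi203 was called in no list, Mndal in 1 young list at 42.7, and Ifi204, of the same family, in 3 lists at 84.9, 72.0 and 76.3. At least 2 more aged than young calls occurred for Irf7 alone among the 30 (background 2.47%). These genes were named after their values were seen.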
